A study of Mus musculus with 24 samples.

Results

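The 9 genes described here are the mouse MHC class II genes H2-Aa, H2-Ab1, H2-Eb1, Cd74, H2-DMa, H2-DMb1, H2-Oa, H2-Ob and Ciita, measured in splenic CD4+ T cell preparations. They were chosen by symbol from a table of 54446 Ensembl gene identifiers. All 9 had counts and all 9 were among the 15325 genes that passed the filter on low counts. Cells came from wild type (WT) and Aim2-/- mice, both C57BL6. Aim2 encodes a cytosolic sensor of double-stranded DNA, and the Aim2-/- mice lack it. For each genotype, cells of 3 mice were taken unstimulated (0 h) or after 3, 6 or 24 h in RP10 medium with anti-CD3/CD28 antibodies, the usual substitute for antigen and costimulation, giving 24 stranded mRNA libraries in 8 groups. WT mice carry the numbers 1, 3 and 4 in the labels and Aim2-/- mice the numbers 1, 2 and 4. A number within a genotype was read as 1 mouse at all times. The stimulated groups differ from 0 h in culture time as well as in the antibodies, so the effects of culture and of antibody cannot be told apart. For the stimulation of CD4+ T cells, the general methods of the study describe enrichment by magnetic removal of other cells. A sort is described there for other experiments, among them those on AIM2 expression. The general methods state matching for sex and age in all experiments, without giving the age. The sequencing reported there is of naive cells and of cells in regulatory T cell culture, which differ from the samples here.

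Class II molecules present peptides from endocytosed protein to CD4+ T cells. The alpha and beta chains (H2-Aa with H2-Ab1 for I-A, H2-Eb1 for I-E) assemble with the invariant chain Cd74, which fills the groove and directs the complex to endosomes. There the H2-DM dimer (H2-DMa and H2-DMb1) exchanges the invariant chain remnant for peptide, and the H2-O dimer (H2-Oa and H2-Ob) inhibits H2-DM. Ciita encodes the transactivator that switches these genes on together. B cells, dendritic cells and macrophages are the usual sources, and mouse T cells, unlike activated human T cells, are known for making little class II of their own. The C57BL6 strain has a defective I-E alpha gene, and H2-Ea-ps, its row in the table, had 0 counts in all 24 libraries.

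Of the 9 members, 7 lie in one stretch of 224.3 kb on chromosome 17 (GRCm38, chr17:34092340-34316674), in the order H2-Oa, H2-DMa, H2-DMb1, H2-Ob, H2-Ab1, H2-Aa and H2-Eb1. Ciita (ENSMUSG00000022504) lies at chr16:10480059-10528418 and Cd74 (ENSMUSG00000024610) on another chromosome. Class II promoters are known for an X box, bound by RFX factors, followed by a Y box, bound by NF-Y, on which CIITA is recruited. RefSeq promoter windows of the same build, from 250 bases before to 50 after the start, were used for 6 of the 9 members, with 2 windows for H2-DMa. None was found for H2-Ab1 or Ciita. For the members, windows on the chromosome of Cd74 were left out of the search, so Cd74 was not examined. The windows of 5 members held an X core (GNAAC) followed after 30 to 33 bases, start to start, by a Y box (ATTGG) on the strand of the gene, and both H2-DMa windows lacked such a pair. Across 32851 windows, 84.8% held the X core and 37.4% the Y box on either strand, and 3.15% held the pair on the gene's strand within 20 to 60 bases, the motifs not overlapping. The letters and the distance were set with the members' promoters in view, so the shares are a description. The 5 stretches are shown because they are a sequence feature that these members share although their levels moved in different directions, with the X core and the Y box in capitals:
H2-Aa (chr17:34287852-34287919, minus strand): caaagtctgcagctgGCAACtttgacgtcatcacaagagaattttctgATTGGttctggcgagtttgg
H2-Eb1 (chr17:34305761-34305827, plus strand): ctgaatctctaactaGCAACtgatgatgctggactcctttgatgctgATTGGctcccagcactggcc
H2-DMb1 (chr17:34153082-34153149, plus strand): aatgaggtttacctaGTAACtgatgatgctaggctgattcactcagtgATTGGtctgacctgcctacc
H2-Oa (chr17:34092288-34092355, plus strand): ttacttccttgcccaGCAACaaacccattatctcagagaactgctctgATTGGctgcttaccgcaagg
H2-Ob (chr17:34238803-34238867, plus strand): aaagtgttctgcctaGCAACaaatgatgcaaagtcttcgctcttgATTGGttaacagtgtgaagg

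Libraries held 19715161 to 21627018 counts, and levels are counts per 1000000 (CPM) on TMM-scaled library sizes. At this depth the detection floor of 3 counts corresponds to 0.139 to 0.152 CPM, which covers counting error only. Aim2 itself was at 5.28 to 20.1 CPM in the Aim2-/- libraries and at 32.5 to 75.0 CPM in the libraries labelled WT 3 and WT 4. The libraries labelled WT 1 held 5.57 to 21.5 CPM, within or near the Aim2-/- range at each time, so that their Aim2 level goes against the label. Fold changes and counts of calls that rest on them are also given without them, after the comparisons of genotypes, while the fits with the mouse as a block and the group means were not repeated without them. All 8 T cell markers were above the floor in every library, with a summed level of 3702 to 5035 CPM. Markers of other cells were present too. Above the floor in all 24 libraries were 8 of 16 B cell markers, 4 of 12 monocyte and macrophage markers, 3 of 10 conventional dendritic cell markers, 1 of 5 plasmacytoid dendritic cell markers, 2 of 4 plasma cell markers and 3 of 6 granulocyte markers. Ms4a1, which encodes a defining B cell surface protein, was low at 0 to 2.59 CPM. In RNA of whole preparations, a change in the number of cells of a type and a change in RNA per cell cannot be told apart.

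**Figure D1:**
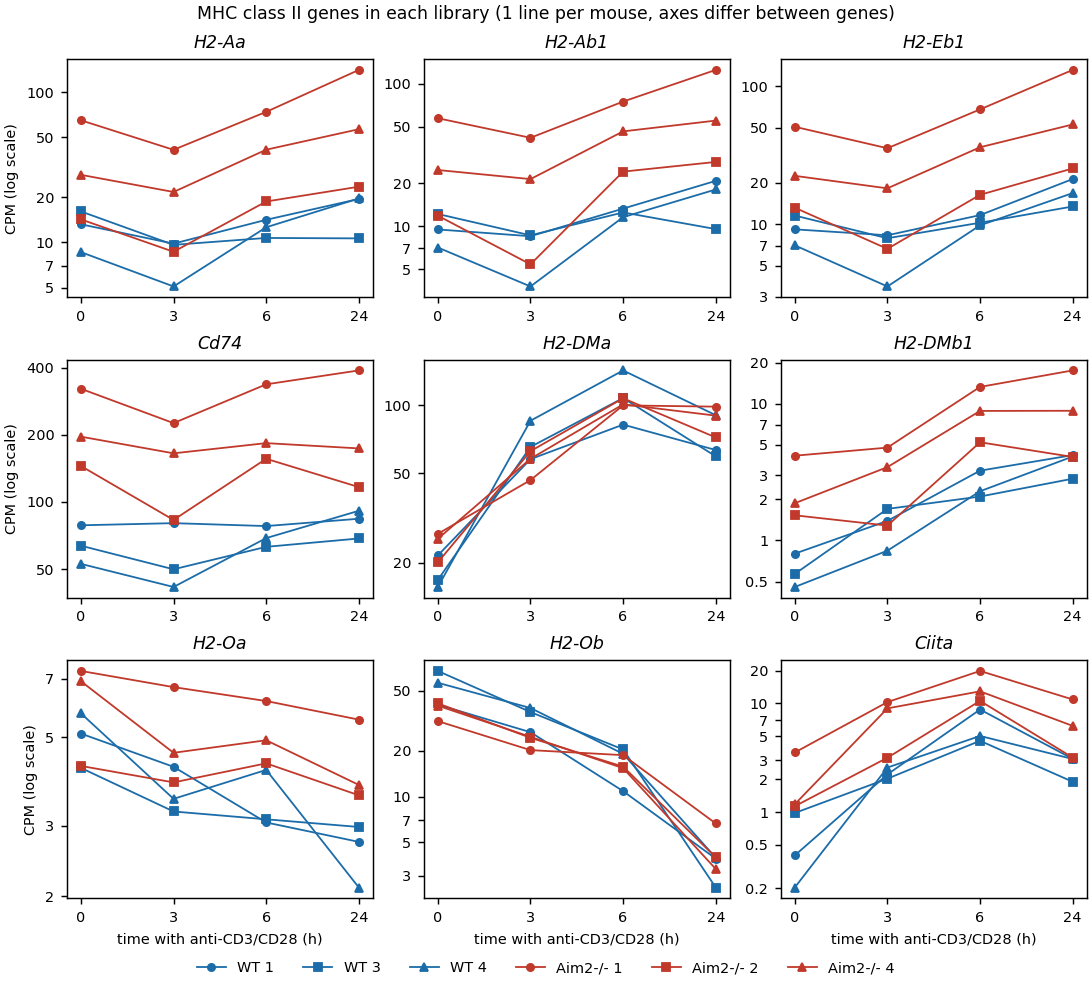
CPM (log scale, a separate axis for each gene) of the 9 MHC class II genes against time with anti-CD3/CD28 (h), with 1 line per mouse, WT in blue and Aim2-/- in red. The 3 chains and Cd74 ran highest in Aim2-/- mouse 1 at every time, H2-DMa and Ciita were highest at 6 h in all 6 mice, and H2-Ob was lower at each later time in all 6 mice.

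The classical chains were present at 0 h in every library and the Aim2-/- mice differed widely. For H2-Aa, the libraries labelled WT 1, 3 and 4 held 13.2, 16.1 and 8.62 CPM at 0 h, and Aim2-/- 1, 2 and 4 held 64.9, 14.2 and 28.2 CPM. At 24 h the values were 19.5, 10.6 and 19.6 CPM in WT and 140.5, 23.5 and 56.6 CPM in Aim2-/- cells. Aim2-/- mouse 1 was the highest and Aim2-/- mouse 2 the lowest of its genotype at all 4 times, with mouse 2 inside the WT range at 0 and 3 h and above it at 6 and 24 h.

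H2-Ab1, the partner chain of H2-Aa, followed the same order of Aim2-/- mice. It stood at 9.50, 12.2 and 7.10 CPM in WT and 57.2, 11.9 and 24.8 CPM in Aim2-/- cells at 0 h. At 3 h it was at 8.52, 8.64 and 3.78 CPM in WT and 41.7, 5.41 and 21.4 CPM in Aim2-/- cells. At 24 h it was at 20.8, 9.56 and 18.1 CPM in WT and 124.9, 28.3 and 55.1 CPM in Aim2-/- cells, so that the genotypes overlapped at 0 and 3 h but not at 24 h. H2-Eb1, the I-E beta chain, was at 9.20, 11.6 and 7.05 CPM in WT and 50.8, 13.2 and 22.4 CPM in Aim2-/- cells at 0 h. At 24 h its values were 21.3, 13.5 and 16.8 CPM in WT and 131.1, 25.4 and 52.8 CPM in Aim2-/- cells, with no overlap of the genotypes at either time.

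All 3 chains went through a low point at 3 h. H2-Aa, H2-Ab1 and H2-Eb1 were lower at 3 h than at 0 h in 6 of 6 mice, at 0.456 to 0.906 times the level of the same mouse. From 3 to 24 h each was higher in 6 of 6 mice, by a factor of 1.10 to 5.22. Against 0 h, the 24 h level was higher in 5 of 6 mice for H2-Aa and H2-Ab1 and in 6 of 6 for H2-Eb1, WT mouse 3 being the exception for the first pair. The edgeR quasi-likelihood test, which compares group means against the spread of all mice, called none of the 3 at any time in either genotype, and the largest difference was that of H2-Eb1 in Aim2-/- cells at 24 h (log2 fold change 1.28 ± 0.59 SE, adjusted p = 0.0598).

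With the mouse as a block, which compares each mouse with itself, several of these differences passed the same edgeR test. At 3 h H2-Aa was lower by the blocked fit in WT (log2 fold change -0.63 ± 0.23 SE, adjusted p = 0.0293) and in Aim2-/- cells (-0.58 ± 0.21, adjusted p = 0.0292), as was H2-Eb1 (-0.51, adjusted p = 0.0441, and -0.57, adjusted p = 0.0122). At 6 h H2-Ab1 (0.77 ± 0.24, adjusted p = 0.00808) and H2-Eb1 (0.48 ± 0.17, adjusted p = 0.0211) were higher by it in Aim2-/- cells, in WT neither was called, and the difference between the genotypes' responses was not called. At 24 h the blocked log2 fold changes in Aim2-/- cells were 0.96 ± 0.20 for H2-Aa (adjusted p = 0.000182), 1.17 ± 0.24 for H2-Ab1 (adjusted p = 0.000132) and 1.19 ± 0.17 for H2-Eb1 (adjusted p = 1.76e-06). In WT cells at 24 h the blocked fit called H2-Ab1 (0.76 ± 0.26, adjusted p = 0.0123) and H2-Eb1 (0.90 ± 0.19, adjusted p = 0.000181), while H2-Aa was at 0.40 (adjusted p = 0.101).

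Cd74, the invariant chain, had the highest mean level per kilobase of exon of the 9 in each of the 8 groups. It was at 78.6, 63.7 and 52.8 CPM at 0 h in the libraries labelled WT 1, 3 and 4 and at 321.8, 145 and 196 CPM in Aim2-/- 1, 2 and 4. At 24 h it was at 84.1, 68.6 and 91.3 CPM in WT and at 389, 117 and 174 CPM in Aim2-/- cells. The genotypes did not overlap at any of the 4 times, and within a genotype the 0 and 24 h values overlapped. The log2 fold change from 0 to 24 h was 0.32 ± 0.40 SE in WT (edgeR adjusted p = 0.486) and 0.04 ± 0.40 in Aim2-/- cells (adjusted p = 0.942). At 3 h Cd74 was lower than at 0 h in 5 of 6 mice, and with the mouse as a block the difference in Aim2-/- cells was called (-0.51 ± 0.15 SE, edgeR adjusted p = 0.0103), against -0.48 and an adjusted p of 0.404 without it.

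H2-DMa, the alpha chain of the peptide exchanger, rose at every time in both genotypes. At 0 h it was at 21.5, 16.7 and 15.6 CPM in the libraries labelled WT 1, 3 and 4 and at 26.8, 20.04 and 25.5 CPM in Aim2-/- 1, 2 and 4. At 6 h it was at 82.1, 107.7 and 143 CPM in WT and at 99.9, 107.5 and 101 CPM in Aim2-/- cells. Every stimulated library lay above every 0 h library of its genotype, the 6 h level was above the 3 h level in 6 of 6 mice and the 24 h level below the 6 h level in 6 of 6. The group means ± SD in WT were 17.9 ± 3.14, 69.5 ± 14.3, 111 ± 30.6 and 71.0 ± 16.9 CPM at 0, 3, 6 and 24 h (n = 3 each), and in Aim2-/- cells 24.1 ± 3.597, 55.6 ± 8.24, 102.8 ± 4.09 and 86.9 ± 13.6 CPM. The log2 fold changes in WT were 1.95, 2.63 and 1.98 (each ± 0.21 SE, edgeR adjusted p = 4.56e-07, 2.39e-09 and 2.8e-08). In Aim2-/- cells they were 1.21, 2.09 and 1.85 (adjusted p = 0.000131, 6.2e-08 and 7.46e-08).

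The H2-DMa gene model (ENSMUSG00000037649, chr17:34119541-34139101, plus strand) overlaps Brd2, a bromodomain gene on the opposite strand at 376 to 683 CPM, and whether the counting used strand is not stated. In WT Brd2 was at 613 to 683 CPM at 0 h, 610 to 646 CPM at 3 h, 590.3 to 654 CPM at 6 h and 421 to 443 CPM at 24 h, so that its 3 and 6 h values overlapped those at 0 h and its 24 h values were lower. Genes lying within exons of a gene on the opposite strand get no unambiguous read when strand is ignored. Of 181 such genes, 123 had counts and 58 had 0 counts, and the median was at 0.013% of the partner's counts.

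H2-DMb1, the beta chain of the same dimer, had a lower level per kilobase of exon at 0 h in WT (0.362 against 5.20 CPM per kb) and was called from 6 h on. At 0 h it was at 0.800, 0.569 and 0.456 CPM in the libraries labelled WT 1, 3 and 4, which are 16, 11 and 9 counts, and at 4.16, 1.53 and 1.87 CPM in Aim2-/- 1, 2 and 4. At 24 h it was at 4.21, 2.83 and 4.11 CPM in WT and at 17.5, 4.08 and 8.88 CPM in Aim2-/- cells. The WT groups at 0 and 24 h did not overlap, and in Aim2-/- cells mouse 1 at 0 h lay just above mouse 2 at 24 h. The gene rose in WT at 6 h (log2 fold change 2.05 ± 0.57 SE, edgeR adjusted p = 0.00476) and 24 h (2.60 ± 0.57, adjusted p = 0.000374), and in Aim2-/- cells at 6 h (1.85 ± 0.50, adjusted p = 0.00416) and 24 h (2.01 ± 0.51, adjusted p = 0.00142). The 3 h difference in WT, 1.10 ± 0.59 with an adjusted p of 0.166, was called with the mouse as a block (1.11 ± 0.33, adjusted p = 0.00888). Without Aim2-/- mouse 4 the 6 h call in Aim2-/- cells was lost. Its near-identical copy H2-DMb2 held 0.300 to 0.465 CPM at 0 h and 3.13 to 6.16 CPM at 24 h in WT, so that the split of reads between these genes is uncertain.

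The H2-O chains, which restrain H2-DM, moved the opposite way. H2-Ob (ENSMUSG00000041538, chr17:34238903-34254414) was at 40.4, 67.3 and 56.2 CPM at 0 h in the libraries labelled WT 1, 3 and 4 and at 31.4, 41.2 and 39.7 CPM in Aim2-/- 1, 2 and 4. At 3 h it was at 26.6, 36.1 and 38.4 CPM in WT and 20.2, 24.4 and 24.8 CPM in Aim2-/- cells. At 24 h it was at 3.90, 2.52 and 3.95 CPM in WT and at 6.65, 3.98 and 3.33 CPM in Aim2-/- cells. It was lower at each later time in 6 of 6 mice, and the stimulated and 0 h groups did not overlap. The log2 fold changes at 3, 6 and 24 h were -0.70, -1.70 and -3.98 in WT (SE 0.24, 0.25 and 0.28, edgeR adjusted p = 0.0304, 6.7e-06 and 6.15e-11). In Aim2-/- cells they were -0.69, -1.17 and -3.00 (SE 0.24, 0.25 and 0.27, adjusted p = 0.0346, 0.000451 and 2.9e-09). The 3 h call in WT was lost without WT mouse 3 or WT mouse 4, and the 3 h call in Aim2-/- cells without WT mouse 4 or any 1 of the Aim2-/- mice.

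H2-Oa, its partner, had a lower level per kilobase at 0 h in WT (3.56 against 10.2 CPM per kb), and smaller differences over time. At 0 h it was at 5.10, 4.19 and 5.73 CPM in WT and at 7.31, 4.23 and 6.89 CPM in Aim2-/- cells. At 24 h it was at 2.74, 2.98 and 2.11 CPM in WT and at 5.53, 3.58 and 3.796 CPM in Aim2-/- cells, lower than at 0 h in 6 of 6 mice. The groups did not overlap in WT and overlapped in Aim2-/- cells, where mouse 1 at 24 h was above mouse 2 at 0 h. The WT difference was called (-0.94 ± 0.26 SE, edgeR adjusted p = 0.00303) except without WT mouse 4, and that in Aim2-/- cells was called only with the mouse as a block (-0.51 ± 0.18, adjusted p = 0.016, against 0.0771 without it). The block also called the WT difference at 6 h (-0.54 ± 0.19, adjusted p = 0.0173).

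Ciita, the transactivator, was near the floor in unstimulated WT cells and rose to a peak at 6 h. At 0 h it was at 0.400, 0.982 and 0.203 CPM in the libraries labelled WT 1, 3 and 4, which are 8, 19 and 4 counts, and at 3.54, 1.13 and 1.18 CPM in Aim2-/- 1, 2 and 4. At 6 h it was at 8.78, 4.53 and 5.01 CPM in WT and at 19.9, 10.5 and 12.9 CPM in Aim2-/- cells. At 24 h it was at 3.09, 1.90 and 3.08 CPM in WT and at 10.9, 3.17 and 6.21 CPM in Aim2-/- cells. All 6 mice went up from 0 to 3 h and from 3 to 6 h and down from 6 to 24 h, and the WT and Aim2-/- groups did not overlap at any time. The log2 fold changes in WT were 2.10, 3.52 and 2.34 at 3, 6 and 24 h (SE 0.61, 0.60 and 0.61, edgeR adjusted p = 0.0107, 4.59e-05 and 0.00173), and in Aim2-/- cells 1.94, 2.88 and 1.79 (SE 0.53, 0.54 and 0.53, adjusted p = 0.00781, 0.000129 and 0.00494). The 3 h call in WT was lost without the libraries labelled WT 1 or without WT mouse 4, and the 3 and 24 h calls in Aim2-/- cells without Aim2-/- mouse 4. Ciita overlaps Dexi on the opposite strand, which was at 13.9 to 30.1 CPM and was not higher at 6 h than at 0 h in group mean in either genotype.

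Interferon gamma, encoded by Ifng, is known to induce Ciita, with IRF1 as one of the factors involved. These genes were looked up after the values of Ciita were seen. Irf1 was at 409 to 487 CPM at 0 h, 1318 to 1759 CPM at 3 h and 416 to 516 CPM at 24 h in WT. Ifng went from 9.82 to 16.05 CPM at 0 h to 63.1 to 120.7 CPM at 6 h in WT, and from 16.5 to 32.05 CPM to 119 to 239 CPM in Aim2-/- cells. Unlike Ciita, Ifng was not lower at 24 h, with 63.3 to 121 CPM in WT and 169.6 to 434.5 CPM in Aim2-/- cells, and its part in the Ciita values was not tested.

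**Figure D2:**
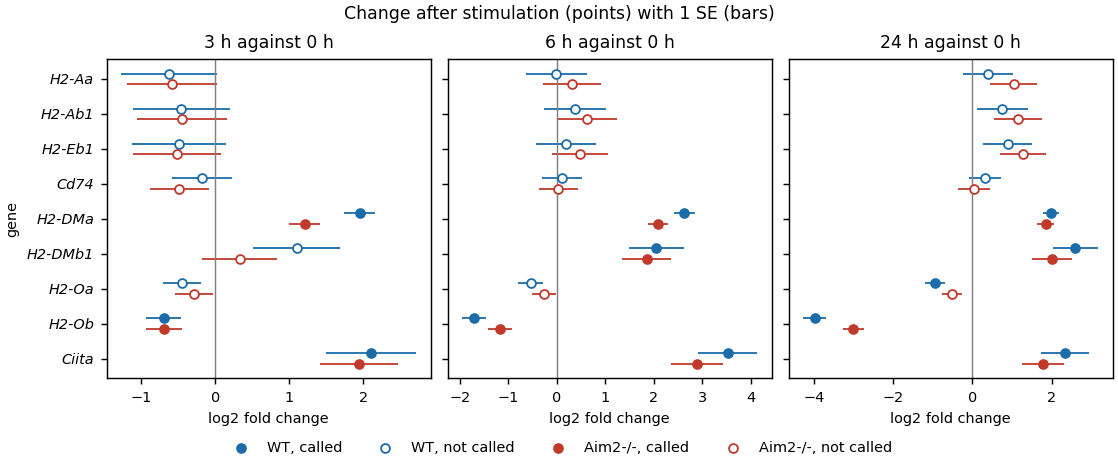
Log2 fold change of each member against 0 h (x axis, 1 panel per time) with bars of 1 SE, WT in blue and Aim2-/- in red, filled where called by edgeR at an adjusted p under 0.05. H2-DMa and Ciita lie right of 0 and H2-Ob left of 0, all filled, in every panel, while the 3 chains and Cd74 are open throughout.

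Of the 9 members, 3, 4 and 5 were called at 3, 6 and 24 h in WT, against 32.6%, 51.1% and 71.4% of all genes tested. In Aim2-/- cells 3, 4 and 4 were called, against 30.7%, 51.2% and 70.3% of all genes. The members' share was near or below that of all genes at each time in this fit. Those that rose were H2-DMa and Ciita at 3 h, joined by H2-DMb1 at 6 and 24 h, in both genotypes, where 16.2%, 26.4% and 36.6% of all genes rose in WT and 16.1%, 28.5% and 36.8% in Aim2-/- cells. H2-Ob fell at every time, joined by H2-Oa in WT at 24 h, where 16.4%, 24.8% and 34.8% of all genes fell in WT and 14.6%, 22.7% and 33.5% in Aim2-/- cells. The median log2 fold change over the members was -0.45, 0.19 and 0.75 in WT and -0.45, 0.48 and 1.15 in Aim2-/- cells, where the median of all genes tested lay between -0.01 and 0.08. With the mouse as a block, 6, 5 and 7 members were called in WT (42.7%, 59.2% and 76.3% of all genes) and 6, 6 and 8 in Aim2-/- cells (41.2%, 59.9% and 75.8%), which at 3 h is a larger share than that of all genes. Without the libraries labelled WT 1, 2, 4 and 5 members were called in WT, the share of all genes in that fit not being given.

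Set per kilobase of exon, the order of levels changed with time. In unstimulated WT cells Cd74 came first at 38.7 CPM per kb, then H2-Ob at 10.2, then H2-DMa, H2-Eb1, H2-Ab1, H2-Oa and H2-Aa between 5.20 and 3.33, neighbours whose ranges overlapped, and last H2-DMb1 at 0.362 and Ciita at 0.0554. At 24 h in WT the order was Cd74 at 48.4, H2-DMa at 20.6, H2-Eb1 at 8.84, H2-Ab1 at 6.30, H2-Aa at 4.36, H2-DMb1 at 2.21, H2-Oa at 1.85, H2-Ob at 0.643 and Ciita at 0.282 CPM per kb. H2-Ob had moved from second place to next to last. In Aim2-/- cells at 24 h Cd74 stood at 135 CPM per kb, H2-Eb1 at 35.9, H2-Ab1 at 27.03 and H2-DMa at 25.2, and Ciita was again last at 0.708. The level of H2-DMa over that of H2-Ob, per kb, ran from 0.388 to 42.1 over the 24 libraries, and that of H2-DMa over its own partner H2-DMb1 from 2.75 to 49.5. Together the members took 0.0144% to 0.0942% of a library's counts.

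The summed levels of the marker lists of antigen-presenting cells went in different directions over time. The summed level of the 3 chains at 24 h was 84.5% to 239.6% of the same mouse's 0 h level in WT and 196% to 229% in Aim2-/- cells. The 12 monocyte and macrophage markers stood at 21.2% to 53.5% of their 0 h sum in WT and at 21.7% to 42.6% in Aim2-/- cells. Lyz2 was a large part of this sum, at 8.38 to 18.6 CPM at 24 h in WT and 20.2 to 127.4 CPM in Aim2-/- cells. Of the 11 tested, 0 rose and 7 fell in WT, where 36.6% of all genes rose and 34.8% fell. In Aim2-/- cells 0 rose and 8 fell, against 36.8% and 33.5% of all genes. The median log2 fold change over the 11 was -3.63 in WT and -3.19 in Aim2-/- cells. Csf1r, a receptor that defines this lineage, went from 5.30 to 7.75 CPM to 0.257 to 0.507 CPM in WT. The 16 B cell markers summed to 371 to 769 CPM at 0 h and 342 to 451 CPM at 24 h in WT and to 4369 to 6137 CPM and 727 to 1635 CPM in Aim2-/- cells, nearly all of it Ighm, the mu heavy chain. Of the 14 B cell markers tested, 0 rose and 5 fell at 24 h in WT, where 36.6% of all genes rose and 34.8% fell. In Aim2-/- cells 1 rose and 6 fell, where 36.8% of all genes rose and 33.5% fell.

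The summed level of the 10 conventional dendritic cell markers, most of it Ccl22 at 24 h, was higher at that time. It stood at 200.5% to 423% of its 0 h value in WT and 232% to 515% in Aim2-/- cells. Of 9 tested, 3 rose in both genotypes, namely Fscn1, Ccl22 and Ccl17, which mature dendritic cells are known to express, and 3 fell in WT and 4 in Aim2-/- cells, Zbtb46 among them (log2 fold change -2.30 ± 0.32 SE in WT and -2.35 ± 0.31 in Aim2-/- cells, edgeR adjusted p = 1.49e-06 and 6.66e-07). Of all genes, 36.6% rose and 34.8% fell at 24 h in WT, and 36.8% rose and 33.5% fell in Aim2-/- cells. The median log2 fold change over the 9 was 0.14 in WT and -0.15 in Aim2-/- cells. Ccl22 held 0.200 to 0.207 CPM at 0 h and 29.1 to 62.1 CPM at 24 h in WT. Flt3, like Zbtb46, was lower, at 0.500 to 1.29 CPM at 0 h and 0.154 to 0.203 CPM, near the floor, at 24 h in WT. The sum of the dendritic cell list was thus higher at 24 h than at 0 h in 6 of 6 mice, those of the macrophage and B cell lists were lower in 6 of 6, and that of the 3 chains was higher in 5 of 6. The part of these cells in the class II values was not tested. Per mouse and at all times, the chains summed to 0.363 to 4.11 times the level of the macrophage list.

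**Figure D3:**
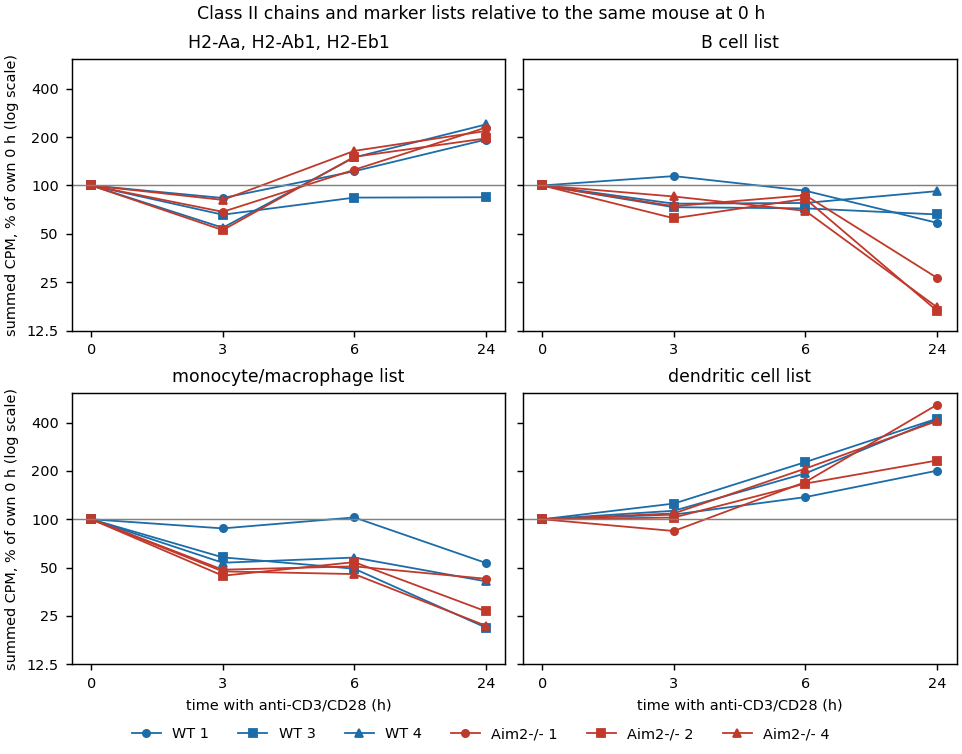
Summed CPM in percent of the same mouse at 0 h (log scale) against time (h) for the 3 classical chains and for 3 marker lists, with 1 line per mouse, WT in blue and Aim2-/- in red. At 24 h the chains lie between 84.5% and 239.6%, the monocyte and macrophage list between 21.2% and 53.5%, and the dendritic cell list, most of it Ccl22, between 200.5% and 515%.

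The comparison of genotypes asked whether cells lacking Aim2 differ in these genes. In unstimulated cells 2 members were called, both higher in Aim2-/- cells, against 5.23% of all genes called and 3.24% called higher. They were Cd74 (log2 fold change 1.76 ± 0.41 SE, edgeR adjusted p = 0.0222) and H2-DMb1 (2.04 ± 0.57, adjusted p = 0.0429). At 3 h no member was called (0.294% of all genes), with 7 at an unadjusted p under 0.05 and 2 called by DESeq2. At 6 h 4 were called, all higher (15.8% of all genes called and 8.78% called higher), namely Cd74 (1.69 ± 0.41, adjusted p = 0.0151), H2-DMb1 (1.84 ± 0.50, adjusted p = 0.023), H2-Eb1 (1.92 ± 0.61, adjusted p = 0.0407) and H2-Ab1 (1.96 ± 0.63, adjusted p = 0.0424). At 24 h none was called (0.666% of all genes), with fitted differences of 2.02 to 2.15 for the 3 chains, 7 members at an unadjusted p under 0.05 and 4 called by DESeq2. With the 4 libraries of each mouse summed, no member was called (0.0117% of all genes), with 8 at an unadjusted p under 0.05 and 6 called by DESeq2. The shares of all genes are those of edgeR at an adjusted p under 0.05. None is given for an unadjusted p or for DESeq2, so those counts do not separate the members from genes in general. The unadjusted counts at 3 h and with libraries summed include H2-Ob, which was lower in Aim2-/- cells (log2 difference -0.54 and -0.38).

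The median log2 difference over the members was 1.64, 1.46, 1.69 and 1.45 at 0, 3, 6 and 24 h, where the median of all genes lay between -0.01 and 0.05. H2-DMa and H2-Ob stood apart from the others. For H2-DMa the difference was 0.43, -0.32, -0.11 and 0.29 at the 4 times and for H2-Ob -0.55, -0.54, -0.01 and 0.43, none of them called, and with the libraries of a mouse summed it was 0.01 ± 0.13 SE and -0.38 ± 0.15 (edgeR adjusted p = 0.979 and 0.201). Ciita was higher in Aim2-/- cells by 1.24 to 1.88 at the 4 times without a call (adjusted p = 0.0714 to 0.164).

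The genotype calls depended on single mice. Without the libraries labelled WT 1, the calls were 1, 0, 2 and 0 at 0, 3, 6 and 24 h, Cd74 at 0 h and Cd74 and H2-DMb1 at 6 h. Without Aim2-/- mouse 2, the lowest of its genotype, they were 6, 6, 6 and 7, and 6 with libraries summed. Without Aim2-/- mouse 1, the highest, they were 1, 0, 1 and 0, and without WT mouse 3, WT mouse 4 or Aim2-/- mouse 4 no member was called at any time. The share of all genes called in each of these fits is not given. The counts therefore do not show whether calls changed for the members or for genes in general. The markers of other cells differed between the genotypes as well. At 0 h the monocyte and macrophage list summed to 41.2 to 63.8 CPM in WT and 108 to 366 CPM in Aim2-/- cells. Lyz2, in this list, held 16.8 to 34.8 CPM in WT and 75.1 to 243.9 CPM in Aim2-/- cells. The dendritic cell list summed to 15.9 to 21.3 and 26.4 to 70.1 CPM. The granulocyte list summed to 27.9 to 30.2 and 122 to 289.5 CPM. None of these sums overlapped between the genotypes. Of 14 B cell markers tested, all 14 had a positive difference at 0 h. By edgeR 3 were called, against 3.24% of all genes called higher, Ighm among them (3.22 ± 0.42 SE, adjusted p = 0.00106). Their part in the class II differences was not tested.

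**Figure D4:**
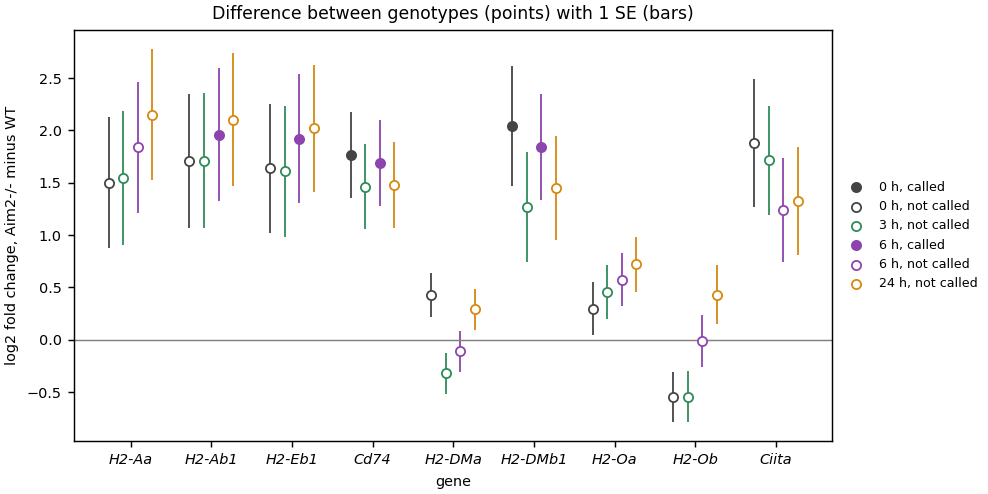
Log2 difference, Aim2-/- minus WT, of each member (y axis) at 0, 3, 6 and 24 h (colors) with bars of 1 SE, filled where called by edgeR at an adjusted p under 0.05. The chains, Cd74, H2-DMb1 and Ciita lie between 1.24 and 2.15, H2-Oa between 0.30 and 0.72, and H2-DMa and H2-Ob on both sides of 0.

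Without the libraries labelled WT 1, the WT fold changes kept their direction for each call made with them. H2-DMa stood at 2.22, 2.96 and 2.21 (log2) at 3, 6 and 24 h (edgeR adjusted p = 2.31e-06, 4.65e-08 and 1.39e-07) and H2-Ob at -0.73, -1.64 and -4.25 (adjusted p = 0.0306, 2.84e-05 and 1.03e-09). Ciita stood at 1.95, 3.00 and 2.06 (adjusted p = 0.0842, 0.00413 and 0.0281), so that its 3 h call was lost. H2-DMb1 stood at 2.08 and 2.74 at 6 and 24 h (adjusted p = 0.0387 and 0.00489) and H2-Oa at -0.96 at 24 h (adjusted p = 0.0215). The 3 chains and Cd74 remained uncalled in WT at each time, at 0.29 to 0.70 at 24 h. Between genotypes, Cd74 differed by 1.92 at 0 h and 1.77 at 6 h (adjusted p = 0.0332 and 0.0335), H2-DMb1 by 2.29 and 2.05 (adjusted p = 0.0746 and 0.0464), and the median over the members was 1.63, 1.70, 1.77 and 1.501 at 0, 3, 6 and 24 h.

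Whether the response to stimulation differed between genotypes was tested with the interaction of genotype and time. No member was called at 3, 6 or 24 h by edgeR, DESeq2 or limma-voom, where edgeR called 0%, 0.0261% and 0% of all genes. At an unadjusted p under 0.05 there were 1, 0 and 1 members, the share of all genes at that p not being given. They were H2-DMa at 3 h (log2 difference of the responses, Aim2-/- minus WT, -0.75 ± 0.29 SE) and H2-Ob at 24 h (0.98 ± 0.37 SE). With the mouse as a block these were -0.71 (edgeR adjusted p = 0.45) and 0.94 (adjusted p = 0.103), so neither passed. The blocked fit called the interaction for 0.0587%, 4.68% and 2.77% of all genes at 3, 6 and 24 h, and for no member.

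Deviations from the group means describe which genes go together within a group. The 24 points are libraries of 6 mice, so they share animals, and the correlations are given as a description. H2-Aa, H2-Ab1 and H2-Eb1 had r of 0.97 to 0.98 with each other, 0.91 to 0.94 with Cd74, 0.94 to 0.96 with H2-DMb1 and 0.80 to 0.84 with Ciita. H2-Oa followed them less, at 0.64 to 0.68. H2-DMa had r of -0.03 to 0.11 with the chains and 0.06 with its partner H2-DMb1, and H2-Ob 0.08 to 0.11 with the chains. The chains also went with the mean of the macrophage list, at 0.94 to 0.97, of the dendritic cell list, at 0.87 to 0.88, of the granulocyte list, at 0.79 to 0.84, and of the B cell list, at 0.76 to 0.82, whereas H2-DMa had -0.02, 0.15, -0.10 and -0.16 with these lists and -0.60 with the T cell list.

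**Figure D5:**
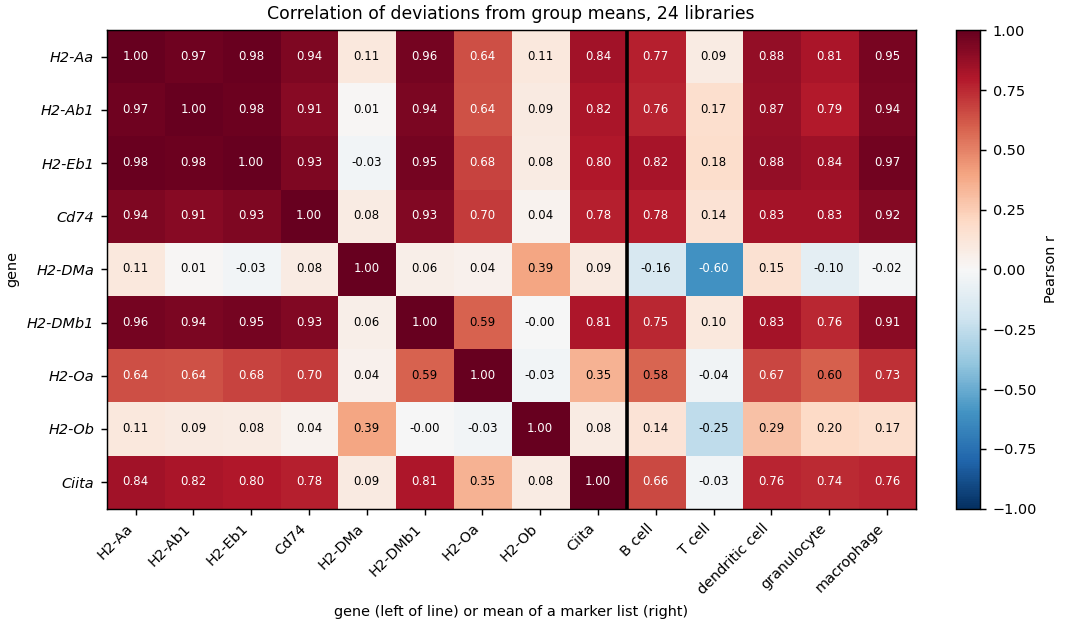
Pearson r of deviations from the 8 group means over 24 libraries, between members (left of the line) and between members and the mean of marker lists (right), on a color scale from -1 to 1. The chains, Cd74, H2-DMb1 and Ciita form a block of 0.78 to 0.98, and the rows of H2-DMa and H2-Ob are pale beside it.

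The genes whose level over the 24 libraries was most like the mean of the chains and Cd74 were Cst3, the protease inhibitor cystatin C (r = 0.967), Ebi3 (0.937), Ifitm2, Cercam and S100a1. For deviations within groups they were Il5, a type 2 cytokine (0.960), Alox5ap, Lat2, Lgals3 and Tyrobp. The genes most like H2-DMa were Glipr2 (0.971), Gadd45g, Wars, Slc14a1 and Ccl3, and for deviations Stat2 (0.862), Zbp1, Samd9l, Ifi203 and Cd47. Those most like H2-Ob were Rnf167 (0.993), Mapk1ip1, Ip6k1, Arhgap27 and Tecpr1. For Ciita they were Slc2a6 (0.922), Serpina3g, Smim1, Cpne5 and Plekho1, for H2-DMb1 Skap2 (0.961), Hmgn3, Ogfrl1, Ifitm3 and Tspan33, and for H2-Oa Ttyh2 (0.896), S100a10, Fam129b, Ehbp1l1 and Nfam1.

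Among 20 other genes of the class II pathway, 19 were tested. In WT 3, 4 and 5 rose and 5, 7 and 10 fell at 3, 6 and 24 h, and in Aim2-/- cells 3, 5 and 5 rose and 4, 5 and 10 fell. Of all genes, 16.2%, 26.4% and 36.6% rose and 16.4%, 24.8% and 34.8% fell in WT. In Aim2-/- cells 16.1%, 28.5% and 36.8% rose and 14.6%, 22.7% and 33.5% fell. The proteases that process antigen and the invariant chain were among the falls at 24 h, with log2 fold changes in WT and Aim2-/- cells of -1.77 and -1.45 for Ctss, -1.70 and -1.53 for Ctsl and -3.28 and -2.42 for Lgmn. The thiol reductase Ifi30 rose, by 2.56 and 2.03. The costimulatory ligands Cd80 (-2.89 and -1.84) and Cd86 (-3.22 and -1.98) fell at 24 h, and Cd40 rose at 3 h (1.82 and 1.73). Of the RFX subunits, which bind the X box shown above, Rfxank fell at 24 h (-1.59 and -1.43), as did Rfx5 (-0.60 and -0.42), and the NF-Y subunit Nfyb rose (0.47 and 0.43).

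Between genotypes, 1 of the 19 was lower in Aim2-/- cells at 0 h, the CREB factor Creb1 (-0.37). At 6 h 4 were higher, namely Cd40 (1.89), the ubiquitin ligase March8 (1.29), Ifi30 (1.07) and Ctsl (0.56), and at 3 and 24 h none was called, against the shares of all genes given above. MHC class I genes served as a contrast. Of 10 genes, 6, 8 and 3 rose and 1, 2 and 4 fell at 3, 6 and 24 h in WT, the heavy chains H2-K1 (-1.54) and H2-D1 (-1.24) falling at 24 h. In Aim2-/- cells 5, 6 and 3 rose and 1, 2 and 4 fell. The shares of all genes that rose and fell are those given above for the pathway genes. No class I gene was called between genotypes at any time. The median class I difference between genotypes was -0.04 to 0.16 over the 4 times, where that of the class II members was 1.45 to 1.69.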

How the data were processed

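Per the labels and the general methods of the study, mRNA libraries were made with a stranded kit from splenic CD4+ T cells, and the authors aligned reads with STAR to GRCm38 and deposited raw counts per Ensembl gene, without normalization. Versions and the use of strand in counting are not given in the sources used here. Symbols, positions and exon lengths came from a GENCODE annotation of that build, which matched 54409 of 54446 identifiers. Counts were tested with edgeR 4.0.16 (quasi-likelihood F test, two-sided, TMM factors, filterByExpr, 1 mean for each of 8 groups, all 24 libraries), and p was adjusted after Benjamini and Hochberg over all 15325 genes tested. A gene is called at an adjusted p under 0.05. CPM used TMM-scaled library sizes, and correlations used log2 CPM with a prior count of 2. The table held 0 columns that could not be assigned. The detection floor was 3 counts.

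Replicates were taken as mice, a number within a genotype being read as 1 mouse at all times. Libraries of the same mouse deviated together (r of 0.139 to 0.567 over 36 pairs, against -0.432 to 0.0742 over 72 pairs of other mice of a genotype), so a fit with the mouse as a block accompanies the time comparisons. Deviations within a group of 3 libraries sum to 0 for each gene, which by itself lowers the values between other mice. Numbers shared between genotypes are of different animals (r of -0.165 to 0.300 over 32 pairs). Alternatives used DESeq2 1.42.0, limma-voom 3.58.1, other scalings, other filters and each mouse left out. The main edgeR fit was tried on simulated counts with known changes in WT at 24 h against 0 h only. These counts held no effect of the mouse, so they do not test the genotype comparisons, the interaction or the blocked fits. All members were named. Other genes came from lists of the class II pathway, class I and cell markers, and the 5 most correlated genes per member were named. Members, lists and markers were chosen with earlier results of these data known. Promoter windows came from RefSeq for GRCm38.p6.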

Additional observations from a re-analysis of the deposited data

How the results depend on the processing

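The counts of members called changed with how mice were treated more than with scaling. At 3 h the number in WT was 6 with the mouse as a replicate block, against 3, and in Aim2-/- cells it was 5 with the replicate number as a block and 6 with the mouse as a block, against 3. At 24 h in Aim2-/- cells it was 7 without a filter and 8 with either block, against 4. Blocking on the replicate number, which joins different animals across genotypes, gave 6, 6, 7 and 7 members for the genotype comparison at 0, 3, 6 and 24 h and 6 with libraries summed, against 2, 0, 4, 0 and 0. At 0 h this count was 1 with library totals, with limma-voom or with only the libraries compared, and 7 without a filter. At 3 h it was 2 by DESeq2 and 5 without a filter, at 24 h 4 and 6, and with libraries summed 6 and 6. Apart from the main fit and the block on the mouse, the share of all genes called is not given beside these counts. They therefore do not separate the members from genes in general. The cause of these shifts was not tested.

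Leaving out 1 mouse at a time, the calls ranged from 1 to 3 at 3 h in both genotypes, from 4 to 5 at 6 h and at 24 h in WT, and from 3 to 4 and 3 to 6 at these times in Aim2-/- cells. For the genotype comparison they ranged from 0 to 6 at 0, 3 and 6 h and with libraries summed, and from 0 to 7 at 24 h. For these counts, too, the share of all genes called is not given. The interaction stayed at 0 calls of members in every fit run.

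Of 115 single values, 8 changed direction somewhere, in 37 of 1665 alternatives, and none of the 8 was called. Cd74 in Aim2-/- cells at 6 h was -0.031 with RLE scaling and by DESeq2, -0.015 without a filter, -0.0029 with a mean of at least 1 CPM and -0.0086 with only the libraries compared. Cd74 in Aim2-/- cells at 24 h was -0.043 with RLE scaling and by DESeq2, -0.072 by limma-voom, -0.028 without a filter, -0.0503 with the number as a block and -0.0601 with the mouse as a block. H2-Aa in WT at 6 h was 0.074 with library totals, 0.027 by limma-voom, 0.0048 with the number as a block and 0.017 with only the libraries compared. H2-Ob between genotypes at 6 h was 0.048 with library totals, 0.0498 by limma-voom and 0.097 with the number as a block. H2-DMa between genotypes with libraries summed was -0.0027 with RLE scaling and by DESeq2, -0.013 without a filter and -0.0080 with the number as a block. Without 1 mouse, Cd74 ranged from -0.0082 to 0.0804 at 6 h and from -0.239 to 0.119 at 24 h in Aim2-/- cells and from -0.037 to 0.180 at 6 h in WT, and H2-Aa in WT from -0.258 to 0.256 at 6 h and from -0.0034 to 0.781 at 24 h. Between genotypes H2-DMa ranged from -0.289 to 0.0703 at 6 h and from -0.103 to 0.172 with libraries summed, and H2-Ob from -0.253 to 0.114 at 6 h. Library totals moved the median gene by 0.107 in WT at 3 h and by 0.115 and 0.12 in Aim2-/- cells at 3 and 6 h (log2).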
